A study of Homo sapiens with 6 samples.

Results

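The 49 genes described here encode deubiquitinases of the USP (ubiquitin-specific protease) and OTU (ovarian tumour protease) families, measured by RNA sequencing in Huh7, an established human liver cancer cell line. They were selected by symbol: 57 rows of the expression table carried a USP, OTUD or OTUB symbol of the pattern searched, and 49 of these, 42 USP and 7 OTU genes, reached a value of 1 or more in 3 or more of the 6 libraries. The whole table has 23344 rows, of which 13696 passed the same filter and were tested. Of the 49 genes, 48 had a value of at least 1 in every library, and USP2 is the exception. USP2 had 1.26, 1.23 and 2.52 in the control and 0.98, 0.86 and 1.7 in the knockdown libraries. Its control values alone met the filter, and its knockdown values alone would not have.

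All 6 libraries came from Huh7 cells that had been given lentivirus with polybrene, and they differ in what the virus carried. The 3 control libraries carry the label shNC, for a control virus. The 3 knockdown libraries carry the label sh2, for a virus directed against the V1 isoform of versican, an extracellular matrix proteoglycan encoded by VCAN, so the comparison rests on a single hairpin label in 1 line. The labels give neither the time from infection to RNA extraction nor the origin of the replicates. Since separate cultures are not stated, a p-value here covers the spread among the sequenced libraries alone, and that spread may be technical. VCAN (ENSG00000038427) had values of 4.79, 6.24 and 8.10 in the control and 1.90, 1.74 and 1.64 in the knockdown libraries, a log2 fold change of -1.39 (SE 0.19, limma adjusted p = 0.0103). The groups did not overlap, and the table does not separate the V1 isoform from the others.

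Values were treated as FPKM, a level per transcript length and library size, although the deposited table does not name its unit, and the read depth of the libraries is unknown. They summed to between 851418 and 975501 per library. Every fold change below is knockdown minus control after adding 1 to each value and taking log2, so changes of low genes come out too small. A gene is said to have risen or fallen only with a limma Benjamini-Hochberg adjusted p below 0.05 over all 13696 genes tested, two-sided. With 3 libraries against 3, an exact permutation test of 1 gene could not go below p = 0.1, so each call leans on the spread shared across genes. All 10 hepatocyte-lineage markers examined were above the filter, with ALB, which encodes albumin, between 3128 and 4006. Of the 10, 2 rose and 1 fell, beside 4.15% and 3.94% of all genes tested. The log2 fold changes were 1.05 for APOA1 and 0.70 for FGB, which rose, and -1.19 for TTR, which fell. Of 12 leukocyte markers, the summed level was 85.5 to 99.2 in the control and 119 to 226 in the knockdown libraries, with 226 in knockdown replicate 2. Most of each sum came from CD14 and LYZ, which were present in every library. CD14 was at 70.2, 54.7 and 45.6 in the control and 57.1, 72.5 and 65.2 in the knockdown libraries. LYZ was at 18.3, 24.7 and 24.8 in the control and 44.5, 68.2 and 37.8 in the knockdown libraries. The neutrophil gene S100A8 was at 17.9 in knockdown replicate 2 and listed at 0 in the other 5 libraries. The pan-leukocyte gene PTPRC was at 1.96 in knockdown replicate 2 and at 0.16 or less elsewhere. Of the 12 markers 5 were tested, and 1, LYZ, rose, beside 4.15% of all genes tested. Of fibroblast and endothelial markers, 4 of 6 were in the table, with summed levels of 164 to 183 in control and 148 to 174 in knockdown libraries, nearly all from LUM.

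Ubiquitin is attached to proteins singly or as chains, and the chain's linkage decides whether the protein is degraded by the proteasome, moved between membranes or used as a signalling platform. Deubiquitinases remove or trim these tags. Most USP and OTU enzymes are cysteine proteases with a conserved catalytic fold, and many act on one substrate complex, such as a histone, a receptor on endosomes or the proteasome itself. In liver cells the families are known for setting the stability of p53, of growth factor receptors and of regulators of NF-kB and interferon signalling.

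Of the 49 genes, 4 (8.16%) passed the test. OTUD1 and USP53 rose, and USP39 and USP5 fell. Over all genes tested 8.08% passed (4.15% higher and 3.94% lower), so the share among these deubiquitinases was near the background and is not a result about the families. At an unadjusted p below 0.05 there were 11 of the 49 (22.4%), beside 29.3% of all genes tested. The median log2 fold change of the 49 genes was -0.011, beside -0.029 over all genes tested; it was 0.006 with quantile normalization and 0.075 when libraries were rescaled without the mitochondrially encoded genes. Of the 49, 45 (91.8%) had a fitted change of less than 1.5-fold, beside 86.5% of all genes tested. The plot of fold changes shows each gene with its interval.

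**Figure D1:**
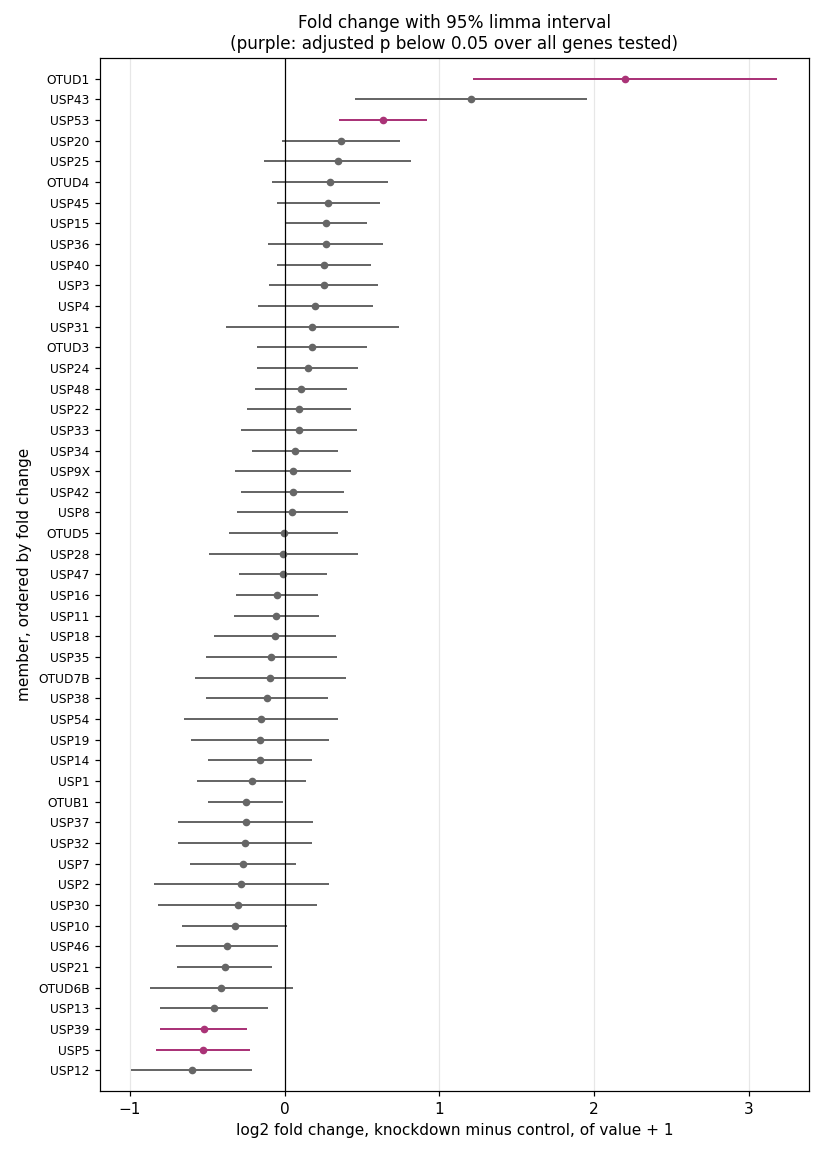
Log2 fold change (x axis, knockdown minus control, of value + 1) of each of the 49 USP and OTU genes (y axis), with its 95% limma interval as a line. The 4 genes drawn in purple passed the test; OTUD1 at 2.20 stands well to the right of the others, and 45 genes lie within 1.5-fold of no change.

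OTUD1 (ENSG00000165312), an OTU enzyme reported to act on regulators of antiviral and inflammatory signalling, had the largest change of the 49. In the order of the replicate numbers, the control libraries were at 8.00, 8.49 and 7.74 and the knockdown libraries at 17.9, 55.2 and 67.0. Every knockdown library was above every control library, and knockdown replicate 1 was far below the other 2. The mean went from 8.08 ± 0.381 (SD, n = 3) to 46.7 ± 25.6, which is 5.78 times as high. The log2 fold change was 2.20 (SE 0.42, limma adjusted p = 0.0274), and it was 2.77 (SE 0.13, adjusted p = 7.62e-05) without knockdown replicate 1. Without knockdown replicate 2, the library with S100A8 and the highest PTPRC, it was 1.98 (limma adjusted p = 0.0888). In that run 1.00% of all genes tested passed, and the 3 other genes called above stood at 0.63 (USP53), -0.53 (USP39) and -0.63 (USP5). Without knockdown replicate 3 OTUD1 was at 1.84 (limma adjusted p = 0.0937). With 1 control library left out, its limma adjusted p was 0.0748 to 0.0923, so the call was not lost through knockdown replicate 2 alone.

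USP53 (ENSG00000145390) encodes a tight junction protein with a USP fold that was long classed as catalytically inactive and whose loss causes inherited cholestasis. Its value was 13.1, 11.1 and 13.2 in the control and 20.2, 20.1 and 19.3 in the knockdown libraries. The knockdown libraries were close to each other and all above the control ones. The mean went from 12.4 ± 1.16 (SD, n = 3) to 19.8 ± 0.522, with a log2 fold change of 0.64 (SE 0.12, limma adjusted p = 0.0233). Its relative USP54 had values of 3.13, 3.86 and 3.95 in the control and 2.06, 3.54 and 4.20 in the knockdown libraries, which overlap (-0.15, 95% interval -0.64 to 0.34, adjusted p = 0.673).

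USP39 (ENSG00000168883) encodes a splicing factor of the tri-snRNP that has the USP fold but lacks the catalytic cysteine. Its value was 55.4, 67.1 and 60.8 in the control and 45.5, 42.3 and 38.9 in the knockdown libraries. No knockdown library reached the lowest control library. The mean went from 61.1 ± 5.84 (SD, n = 3) to 42.2 ± 3.30, a log2 fold change of -0.52 (SE 0.12, limma adjusted p = 0.0368). Exons of USP39 overlap those of C2orf68 (mean 21.07 in control, 17.05 in knockdown) and TMEM150A (10.77 and 11.96) on the opposite strand in GENCODE 29. The sources used here do not say whether the authors counted by strand, so reads from the overlap cannot be told apart.

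USP5 (ENSG00000111667), also called isopeptidase T, disassembles free ubiquitin chains and so returns ubiquitin to the pool. Its value was 57.8, 66.5 and 65.5 in the control and 39.6, 50.6 and 41.2 in the knockdown libraries. The groups did not overlap, and knockdown replicate 2 was the nearest to the controls. The mean went from 63.2 ± 4.77 (SD, n = 3) to 43.8 ± 5.95, a log2 fold change of -0.53 (SE 0.13, limma adjusted p = 0.0446).

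These 4 calls depended on the set of libraries. OTUD1 and USP53 passed in 5 of 11 alternatives, USP5 in 3 and USP39 in 2, with adjusted p of up to 0.0937, 0.103, 0.156 and 0.143, and no direction changed. None of the 4 passed when a library other than knockdown replicate 1 was left out or when the low-value filter was dropped. Few genes of any kind passed in those runs: 0.394% to 1.62% of all genes tested without a library, and 0.947% with no filter. The loss of the 4 calls is therefore not particular to these genes. USP39 and USP5 also missed the threshold with quantile normalization (adjusted p = 0.0518 and 0.0610) and after libraries were rescaled on their non-mitochondrial total (0.0912 and 0.122). Without knockdown replicate 1, 8 of 49 genes passed (16.3%, beside 24.4% of all genes tested), and USP43, USP12, USP10 and OTUD6B joined the 4.

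**Figure D2:**
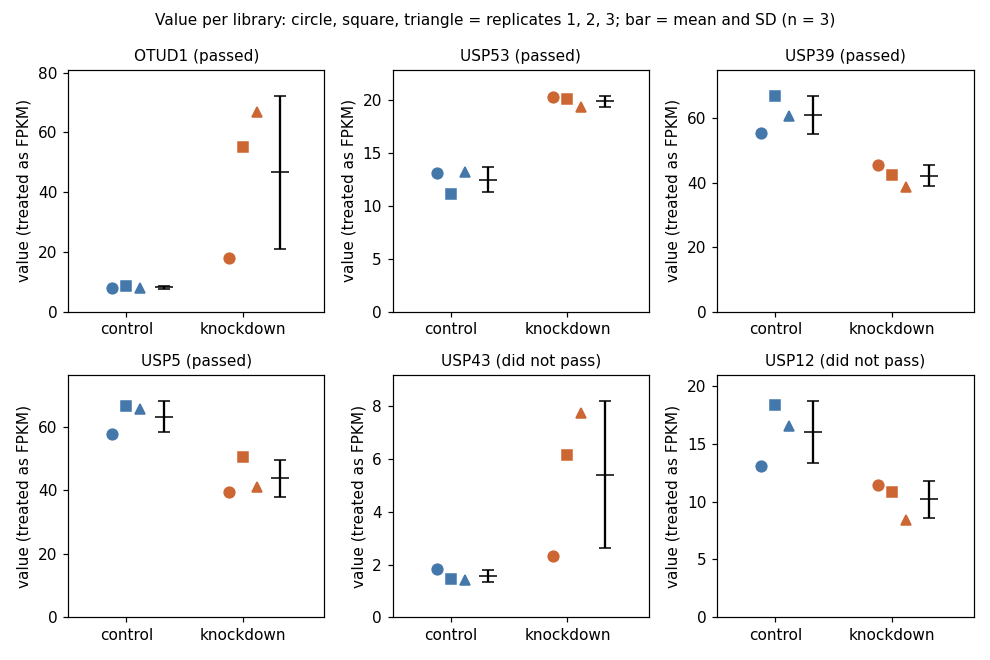
Value (y axis, treated as FPKM, from 0) of the 4 genes that passed and of USP43 and USP12, which did not, in each control (blue) and knockdown (orange) library, with the mean and SD of 3 libraries in black. The groups are apart in all 6 panels, and knockdown replicate 1 (circle) is nearest to the controls for OTUD1, USP43, USP39 and USP12.

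The stretches of 250 bases before the annotated starts of OTUD1, USP53 and USP5 are given because these are the genes that passed and have a single start in the RefSeq promoter table (build GRCh38.p14); USP39 passed too and has several. Sequences run 5′ to 3′ on the gene's strand. Capitals mark matches, on either strand, to 8 short motifs searched: TATAAA (known as the TATA box), TGACGT (core of a cyclic AMP response element), TGANTCA (AP-1), GGANTTTCC (NF-kB), CACGTG (E-box), GGGCGG (GC box), CCAAT and CCGGAAG (ETS). No 2 marked matches share a base.
OTUD1, chr10:23438825-23439074, forward strand: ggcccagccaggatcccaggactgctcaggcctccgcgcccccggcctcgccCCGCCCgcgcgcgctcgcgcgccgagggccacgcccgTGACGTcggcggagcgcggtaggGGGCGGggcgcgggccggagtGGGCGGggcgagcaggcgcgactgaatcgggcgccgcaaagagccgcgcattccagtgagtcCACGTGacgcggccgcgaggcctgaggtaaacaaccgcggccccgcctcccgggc
USP53, chr4:119212463-119212712, forward strand: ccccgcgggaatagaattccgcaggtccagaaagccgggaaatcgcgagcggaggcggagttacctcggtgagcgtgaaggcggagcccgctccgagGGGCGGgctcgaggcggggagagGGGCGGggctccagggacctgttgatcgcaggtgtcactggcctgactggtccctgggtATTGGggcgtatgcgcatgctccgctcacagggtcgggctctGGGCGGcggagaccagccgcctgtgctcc
USP5, chr12:6851900-6852149, forward strand: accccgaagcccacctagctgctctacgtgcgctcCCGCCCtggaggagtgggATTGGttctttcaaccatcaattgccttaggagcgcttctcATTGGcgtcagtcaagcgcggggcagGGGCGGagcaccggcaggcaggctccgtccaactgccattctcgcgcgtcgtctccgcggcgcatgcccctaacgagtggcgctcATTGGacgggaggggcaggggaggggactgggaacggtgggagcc

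The OTUD1 window held 3 GC boxes, 1 TGACGT match that begins 161 bases before the start and 1 CACGTG match that begins 55 bases before it. The USP53 window held 3 GC boxes and 1 CCAAT match, and the USP5 window 2 GC boxes and 3 CCAAT matches. Among all 35116 windows of that table, which include non-coding genes, 42.6% held GGGCGG, 7.10% TGACGT and 6.34% CACGTG, and 11240 held CCAAT. The letters of the TATA box, the AP-1, the NF-kB and the ETS motif were not in these 3 windows; 10.7%, 6.57%, 1.45% and 8.52% of all windows held them. Of the 49 genes, 40 had an entry, with 54 windows in all. Their windows had a median GC content of 68.8% and 25 CpG pairs, beside 58.0% and 11 over all windows. GGGCGG was in 72.2% and CCGGAAG in 24.1% of the 54 windows, and CCAAT in 13 of the 54. A match describes letters only and does not show that a factor binds there.

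Of the 7 OTU genes tested, 1, OTUD1, rose and 0 fell, beside 4.15% and 3.94% of all genes tested. The other 6 did not pass. OTUD5, which acts on signalling adaptors, and OTUB1, which also binds and holds back ubiquitin-conjugating enzymes, were the most abundant of them, with means over 6 libraries of 47.0 and 44.6. OTUB1 had 49.3, 47.7 and 48.6 in the control and 39.0, 43.1 and 39.9 in the knockdown libraries. Those groups did not overlap, and the difference missed the threshold (-0.25, 95% interval -0.49 to -0.02, adjusted p = 0.152). OTUD7B, also called Cezanne, which removes ubiquitin from EGFR and from regulators of NF-kB, had 7.88, 10.8 and 9.34 against 6.05, 10.7 and 9.89, which overlap (-0.09, interval -0.57 to 0.39). OTUD6B, a gene tied to protein synthesis, had 7.74, 10.98 and 10.41 against 9.37, 5.98 and 6.03 (-0.41, adjusted p = 0.211): knockdown replicates 2 and 3 were below every control library and replicate 1 was not. OTUD4 (0.29) and OTUD3 (0.18) had adjusted p of 0.269 and 0.481; exons of OTUD4 overlap those of ABCE1 on the opposite strand (means of 45.8 and 38.7). The summed level of the 7 OTU genes was 125.6, 131.4 and 131.8 in the control and 118.7, 175.6 and 183.7 in the knockdown libraries. Without OTUD1 it was 117.6 to 124.1 and 100.9 to 120.4, so the higher sums of knockdown replicates 2 and 3 came from OTUD1.

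Among 9 USP genes of receptors, vesicles, the secretory pathway and mitochondria, 0 passed the limma test, beside 8.08% of all genes tested. An unadjusted p below 0.05 was seen in 1 of the 9, beside 29.3% of all genes tested. That gene was USP43, with 1.84, 1.45 and 1.41 in the control and 2.31, 6.14 and 7.72 in the knockdown libraries. All knockdown libraries were above the controls, and replicate 1 was again the nearest to them. Its log2 fold change was 1.21 (SE 0.33, limma adjusted p = 0.0555), and it passed in 1 of 11 alternatives, at 1.62 (SE 0.18, adjusted p = 0.00109) without knockdown replicate 1. Without knockdown replicate 2 or 3 it was 1.07 and 0.93 (adjusted p = 0.164 and 0.160).

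USP8, which spares EGFR and other receptors from lysosomal degradation at endosomes, had 10.9, 13.8 and 15.8 in the control and 13.5, 13.2 and 15.0 in the knockdown libraries. The groups overlapped, and the interval of 0.05 ran from -0.30 to 0.40 (adjusted p = 0.859). USP9X, an X-linked enzyme with many substrates at membranes, had 18.3, 25.6 and 25.7 against 21.2, 27 and 23.5 (0.05, interval -0.32 to 0.42). USP2, which is regulated by the circadian clock, had 1.26, 1.23 and 2.52 against 0.98, 0.86 and 1.7 and was the lowest of the 49 (-0.28, adjusted p = 0.485); replicate 3 was the highest of both groups. USP20 and USP33, closely related enzymes that act on receptors and their trafficking, had log2 fold changes of 0.36 (interval -0.01 to 0.74) and 0.09 (-0.28 to 0.46). Exons of USP20 overlap those of C9orf78 on the opposite strand (means of 55.8 in control and 47.0 in knockdown), with the same limit as for USP39. USP30 of the mitochondrial outer membrane (-0.30), USP19 of the endoplasmic reticulum (-0.16) and USP32 (-0.26) had adjusted p from 0.398 to 0.621. Copies of USP32 are in the table as USP32P1 to USP32P3, the highest of them at a mean of 2.29 in knockdown, so the share of USP32 reads between them is uncertain.

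Of 10 USP genes of chromatin and transcription, 0 passed the limma test, beside 8.08% of all genes tested. At an unadjusted p below 0.05 there were 3, all lower. Over all genes tested that share was 29.3%, so 3 of 10 is near the background and not a result about this group. USP12 had 13.1, 18.3 and 16.5 in the control and 11.4, 10.8 and 8.37 in the knockdown libraries. Its close relative USP46, which like USP12 needs the WD-repeat protein WDR48 for activity, had 10.1, 13.5 and 12.6 against 9.09, 9.50 and 8.53. In both genes every knockdown library was below every control library. The log2 fold changes were -0.60 (SE 0.17, adjusted p = 0.0616) and -0.37 (SE 0.14, adjusted p = 0.129). WDR48 itself had 10.4, 14.0 and 12.5 against 10.4, 13.1 and 13.0 (-0.01, adjusted p = 0.969), with overlapping groups. The third gene was USP21, a histone H2A deubiquitinase, with 7.37, 7.97 and 8.91 against 6.10, 5.84 and 5.85 (-0.39, adjusted p = 0.0991).

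USP22, the deubiquitinase of the SAGA coactivator, was the most abundant of the 49, with 58.3, 70.2 and 64.1 in the control and 57.0, 79.7 and 70.4 in the knockdown libraries. The groups overlapped (0.09, interval -0.23 to 0.42). USP16, which acts on histone H2A in mitosis, followed with 65.0, 67.8 and 62.4 against 70.0, 61.0 and 57.9 (-0.05, interval -0.31 to 0.21). These neighbours in the order of levels do not differ beyond their spread. USP7, which stabilises MDM2 and p53, had 26.6, 34.2 and 34.1 against 28.9, 26.8 and 22.4 (-0.27, interval -0.60 to 0.07, adjusted p = 0.268). USP36 of the nucleolus and USP3 of histone H2A were highest in knockdown replicate 1, at 20.9 and 21.8, while replicates 2 and 3 were at 14.2 and 14.5 for USP36 and at 16.5 and 16.1 for USP3. The control libraries were at 13.1 to 13.8 and at 13.8 to 16.8, and neither gene passed (adjusted p = 0.309 and 0.310). USP11 and USP42 had log2 fold changes of -0.05 and 0.05.

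**Figure D3:**
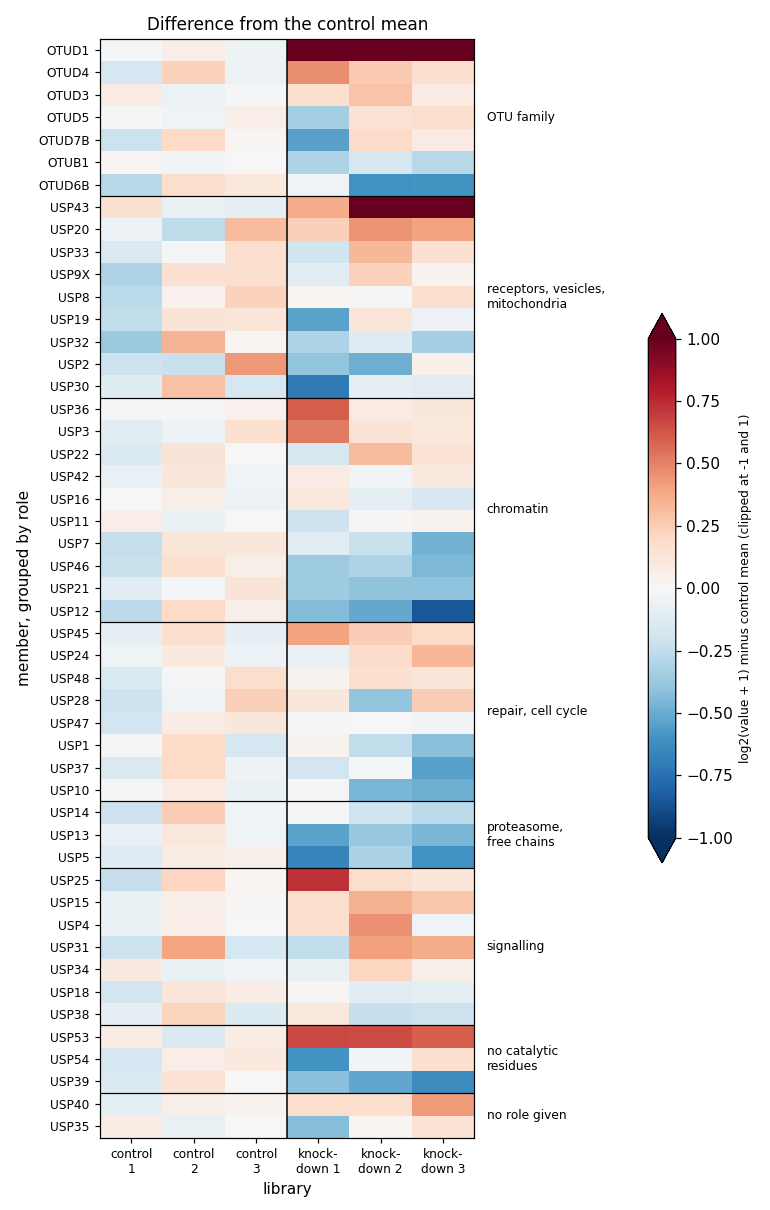
Difference of each gene's log2(value + 1) from its control mean (colour, clipped at -1 and 1) in the 6 libraries (columns) for the 49 genes (rows), grouped by role. OTUD1 is above the control mean by more than 1 in all 3 knockdown libraries. Among the genes that stand out in knockdown replicate 1 alone, USP36, USP3 and USP25 are higher there. USP30, USP54, OTUD7B and USP19 are lower there.

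Of 8 USP genes of DNA repair and the cell cycle, 0 passed the limma test, beside 8.08% of all genes tested. At an unadjusted p below 0.05 there were 0 of the 8, beside 29.3% of all genes tested. USP1, which with WDR48 removes ubiquitin from FANCD2 and PCNA, had 38.3, 44.2 and 34.4 in the control and 39.7, 32.5 and 28.7 in the knockdown libraries (-0.21, interval -0.56 to 0.13, adjusted p = 0.388). The groups overlapped through knockdown replicate 1. USP10, a p53 deubiquitinase that binds the stress granule protein G3BP1, had 47.7, 51.1 and 46.1 against 47.6, 35.0 and 34.0 (-0.32, adjusted p = 0.182), with replicate 1 again among the controls. Without that library USP10 was among the 24.4% of all genes tested that passed (-0.47, adjusted p = 0.0151); in every other alternative run it did not, with adjusted p from 0.183 to 0.462. USP37, which stabilises cyclin A, had 2.62, 3.57 and 2.87 against 2.5, 2.94 and 1.75 (-0.25, adjusted p = 0.411). Its exons overlap those of VIL1 on the opposite strand, which had means of 173 in control and 182 in knockdown libraries, far above USP37 itself, so USP37 values are uncertain. USP45, which acts with the DNA repair nuclease subunit ERCC1, had 5.47, 6.72 and 5.48 against 8.08, 7.15 and 6.88; all knockdown libraries were higher, and the difference missed the threshold (0.28, adjusted p = 0.226). USP24, USP28, USP47 and USP48 had log2 fold changes between -0.01 and 0.15.

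The 3 genes of the proteasome and of free ubiquitin chains all had negative fold changes, as did 7328 of all 13696 genes tested. Of the 3, 1, USP5, fell, beside 3.94% of all genes tested. USP13, a close relative of USP5, had 3.14, 3.65 and 3.21 in the control and 1.98, 2.33 and 2.15 in the knockdown libraries. The groups did not overlap, and the difference missed the threshold (-0.46, SE 0.15, adjusted p = 0.0892). USP14, which trims chains on the proteasome, had 37.9, 52.4 and 42.4 against 43.5, 38.0 and 36.3, which overlap (-0.16, interval -0.49 to 0.17, adjusted p = 0.506); its exons overlap those of THOC1 on the opposite strand (means of 26.3 and 36.0).

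Of 7 USP genes of inflammatory, interferon, Wnt and TGF-beta signalling, 0 passed the limma test, beside 8.08% of all genes tested. An unadjusted p below 0.05 was seen in 1 of the 7, beside 29.3% of all genes tested. That was USP15, which acts on SMAD proteins and the TGF-beta receptor, with 24.7, 27.1 and 26.1 in the control and 29.5, 33.4 and 31.6 in the knockdown libraries (0.27, SE 0.11, adjusted p = 0.152). Every knockdown library was above every control library. Its relatives USP4 (0.20) and USP11 (-0.05) had overlapping groups. USP25 had 2.94, 4.36 and 3.68 against 6.67, 4.23 and 4.02 (0.34, adjusted p = 0.309), with knockdown replicate 1 alone above the controls. USP18, an interferon-induced protease for the ubiquitin-like protein ISG15, was low in all libraries, with 1.28, 1.82 and 1.73 against 1.62, 1.42 and 1.43 (-0.06, interval -0.45 to 0.33, adjusted p = 0.841). USP31, USP34 and USP38 had log2 fold changes of 0.18, 0.07 and -0.11. Exons of USP31 overlap those of AC127459.1 on the same strand (means of 1.15 in control and 3.38 in knockdown). Exons of USP34 overlap those of AHSA2P on the opposite strand (23.8 and 32.6). USP4 overlaps C3orf62 on the same strand (3.08 and 4.04), and USP35 overlaps KCTD21 on the opposite strand (3.60 and 3.61). The limit given for USP39 holds for USP34 and USP35. For USP31 and USP4 the overlap is on the same strand, so counting by strand would not by itself separate the reads. USP40 (0.26) and USP35 (-0.09), to which no role was given, did not pass.

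Levels of the 49 genes ran from a mean of 1.43 for USP2 to 66.6 for USP22, and USP22, USP16, USP5, USP39 and OTUD5 were the 5 highest over all libraries. The summed level of the 49 was 863, 980 and 945 in control and 876, 962 and 920 in knockdown replicates 1, 2 and 3, so the groups overlapped. In the control libraries OTUD1 was below OTUB1 and OTUD5, and in knockdown replicates 2 and 3 it was above both. The plot of levels shows this shift of OTUD1 across the order.

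**Figure D4:**
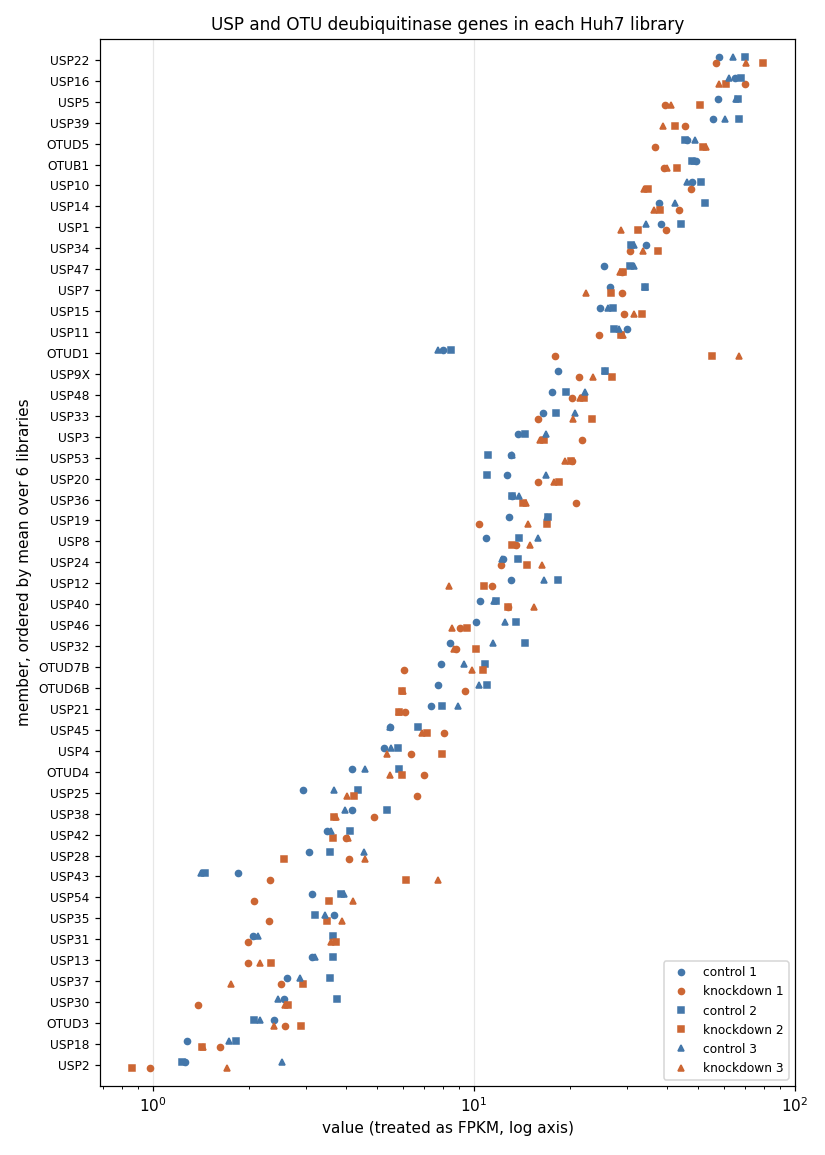
Value (x axis, treated as FPKM, log axis) of the 49 genes (y axis, ordered by mean over the 6 libraries) in each control (blue) and knockdown (orange) library. Most genes have interleaved points; OTUD1 is at 7.74 to 8.49 in control and at 17.9 to 67.0 in knockdown libraries.

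In 14 of the 49 genes (28.6%) the control and knockdown libraries did not overlap, 7 with knockdown above and 7 below (14.3% each). Over all genes tested it was 33.1%, with 14.4% above and 18.7% below. The 7 above were OTUD1, USP53, USP43, USP15, USP36, USP40 and USP45. The 7 below were USP5, USP39, OTUB1, USP12, USP46, USP21 and USP13. Knockdown replicate 1 was the library farthest from the other 2 of its group in 29 of the 49 genes (59.2%), 13 times as the highest and 16 times as the lowest, and in 54.5% of all genes tested. Among the controls, replicate 1 was the one apart in 22 of the 49 genes (44.9%), 18 times as the lowest and 4 as the highest. Over all genes tested it was apart in 38.2%, 2968 times as the lowest and 2270 as the highest.

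The 8 genes below the filter were OTUB2, OTUD7A, USP6, USP27X, USP44, USP49, USP50 and USP51. USP49, a histone H2B deubiquitinase, was the nearest to it, at 0.520 to 0.830, and USP2 was the member just inside. USP50 was listed at 0 in the control libraries and in knockdown replicate 1, and at 0.200 and 0.240 in replicates 2 and 3.

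Of 28 genes tested from the other OTU and USP-like, UCH, Josephin, JAMM and MINDY families, 0 passed the limma test (8.08% of all genes tested), and 4 had an unadjusted p below 0.05 (29.3% of all genes tested), 3 higher and 1 lower. TNFAIP3, which encodes A20, the NF-kB-induced OTU enzyme that damps NF-kB signalling, had 11.8, 15.3 and 13.5 in the control and 13.2, 52.3 and 65.8 in the knockdown libraries (1.35, SE 0.55, adjusted p = 0.160). CYLD, a USP-like enzyme that cuts signalling chains in the same pathway, had 2.22, 3.15 and 3.18 against 2.99, 5.91 and 6.10 (0.60, SE 0.24, adjusted p = 0.145). In both, knockdown replicates 2 and 3 were above all controls and replicate 1 was among them. Both passed in 1 of 11 alternatives, the one without knockdown replicate 1, in which 24.4% of all genes tested passed; TNFAIP3 was then at 2.04 (adjusted p = 0.000242) and CYLD at 0.87 (adjusted p = 0.00976). Without knockdown replicate 2 or 3, TNFAIP3 was at 1.09 and 0.93 (adjusted p = 0.362 and 0.437) and CYLD at 0.48 and 0.46 (adjusted p = 0.349 and 0.380). The other 2 were FAM188A (0.53, adjusted p = 0.154) and COPS5, the deneddylase of the COP9 signalosome (-0.32, adjusted p = 0.0885), which fall outside the naming rule and were chosen after their values were seen. BAP1, the nuclear H2A deubiquitinase and tumour suppressor, had 24.1, 22.8 and 23.6 against 23.3, 26.5 and 25.3 (0.09, adjusted p = 0.639).

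Of 13 partners of USP and OTU enzymes, 1 rose and 1 fell, beside 4.15% and 3.94% of all genes tested. Whether the partners as a list differ from the background was not tested. ATXN7L2, a paralog of the ATXN7 subunit that anchors the SAGA deubiquitinase module, rose from 1.24, 1.22 and 1.5 to 3.21, 4.45 and 3.22 (0.99, SE 0.17, limma adjusted p = 0.0190). GMPS, the GMP synthase that binds USP7, fell from 36.4, 44.5 and 36.9 to 27.6, 28.97 and 22.5 (-0.56, SE 0.14, limma adjusted p = 0.0457). For both, the groups did not overlap. When a library other than knockdown replicate 1 was left out, neither passed, with adjusted p from 0.0502 to 0.0873 for ATXN7L2 and from 0.0929 to 0.163 for GMPS. In those runs 0.394% to 1.62% of all genes tested passed. GMPS also missed the threshold with quantile normalization (adjusted p = 0.0569), with the rescaling on the non-mitochondrial total (0.104) and with no filter (0.0952), and ATXN7L2 passed in all 3 (0.0205, 0.0162 and 0.0497).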

How the data were processed

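Total RNA of 6 Huh7 libraries, 3 per group, was sequenced; groups and replicate numbers were taken from the library titles. The authors deposited 1 table of 23344 human genes with values treated here as FPKM; its unit is not named, and TPM of a gene set with missing rows is also possible. The submitters' processing notes name Bowtie2 2.2.6 and RSEM 1.1.17 beside Trimmomatic 0.36, bcl2fastq 2.19.0, DESeq2 1.16.1 and edgeR 3.18.1, with no role for each, and the build mm10, although the gene IDs are human. Annotation and strandedness are not given in the sources used here. The main design was the one planned for normalized values; alternatives planned for counts were not run. The 13696 genes that reached 1 in 3 or more libraries were tested on log2(value + 1) with limma 3.58.1 in R 4.3.3. Trend and robust moderation and Benjamini-Hochberg adjustment were used. The step was also run on simulated normal values, drawn independently for each gene and library. That run held no library that stands apart across many genes, as knockdown replicate 1 does, so it does not cover such a case.

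The members, roles, other lists and alternatives were chosen with earlier results of these data known. Named were VCAN, genes that passed, the 5 highest levels, the 3 largest changes in each direction that missed the threshold, and a fixed set; the other members are given by their values. Alternatives were a pseudocount of 0.1, no filter (23339 genes), quantile normalization, rescaling of each library without its 15 mitochondrially encoded genes, the replicate block, and leaving out each library. Exon overlaps came from GENCODE 29. They also involve members for which no overlap is described above, among them OTUB1, USP15, USP22, USP45 and USP54. Read depth is unknown, so no counting interval is given.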

Additional observations from a re-analysis of the deposited data

How the results depend on the processing

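The count of USP and OTU genes that were higher (2) was 0 with no filter on low values, and it ranged from 0 to 3 when 1 library was left out. The count that were lower (2) was 0 with no filter, 0 with quantile normalization and 0 after each library was rescaled to its total outside the mitochondrially encoded genes (the rescaling below), and it ranged from 0 to 5 when 1 library was left out. With the replicate block 2 were higher and 1 lower, USP39 being lost (adjusted p = 0.0618); no label ties equal numbers to a shared source, deviations of same-numbered libraries correlated at 0.053, 0.105 and 0.135, and not every library correlated best with its own number. Over all genes, 568 were higher and 539 lower; these were 157 and 64 with no filter, 673 and 221 with the rescaling, 562 and 432 (4.10% and 3.15%) with quantile normalization, 459 and 402 with the replicate block, and ranged from 48 to 1638 and from 6 to 1704 when 1 library was left out. The counts of 0 came from limma. At an unadjusted p below 0.05 there were 11 members with no filter (22.4%, beside 20.5% of all genes). Without a library other than knockdown replicate 1 there were 7 to 12 (14.3% to 24.5%, beside 19.1% to 25.1% of all genes tested). These shares were near or below the background and are not a result about the members. The members' median was 0.075 with the rescaling.

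Among the members and partners named by rule, only those near 0 that had not passed changed sign. With the rescaling the partner WDR48 was at 0.088, OTUD5 was at 0.0999, OTUD7B at 0.0071, USP16 at 0.058 and USP18 at 0.00035, and with quantile normalization OTUD5 was at 0.058 and USP16 at 0.017. Without 1 library, WDR48 ranged from -0.121 to 0.0905, OTUD5 ranged from -0.098 to 0.159, OTUD7B from -0.230 to 0.136, USP16 from -0.126 to 0.0083, USP22 from -0.015 to 0.224, USP8 from -0.085 to 0.164 and USP9X from -0.102 to 0.131. Precision is limited by 3 libraries per group and by a read depth that is unknown.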
